A study of Mus musculus with 14 samples.

Results

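The 10 genes described here encode the core of TGF-beta signalling in the mouse: the ligands Tgfb1, Tgfb2 and Tgfb3, the receptors Tgfbr1, Tgfbr2 and Tgfbr3, the activating SMADs Smad2, Smad3 and Smad4, and the inhibitor Smad7. They were chosen by name and not by a measured value, but with earlier results of these data known. They are 10 of the 21938 protein-coding genes of the annotation. The data are the positions of 160144 H3K4me1 sites on the mm10 genome, of which 288 lay over the 10 genes or within 50 kb of them. The sites were obtained by ChIP-seq, in which chromatin fragments bound by an antibody against a histone mark are sequenced, from NG3 cells, a clone of immortalized mouse embryo fibroblasts (iMEF). Exon 4 of endogenous Ash2l is deleted in these cells, and a FKBP-HA2-ASH2L fusion protein with human ASH2L takes its place. dTAG-13 couples the FKBP part to an E3 ubiquitin ligase, so that the fusion protein is degraded. Control cells received no dTAG, and the other groups were treated with dTAG for 30 min, 2 h, 4 h, 8 h or 16 h. Each of these 6 conditions was measured in 2 replicates, which gives 12 H3K4me1 libraries, and 2 input libraries were made from the control and the 16 h cells. All groups, the controls included, carry the deletion and the fusion protein and stem from 1 clone. The sites form 1 set for all of these libraries together, without a read count or signal, so a site can come from any condition, and neither a replicate error nor a change over time can be given. What follows describes where sites lay and how wide they were, in the cells as a whole. These positions allow no test between conditions, and the study's separate list of changed sites was not analysed here.

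TGF-beta ligands are secreted in a latent form and, once released, bring together a type I and a type II receptor kinase. The receptors phosphorylate SMAD2 and SMAD3, which join SMAD4, enter the nucleus and act on target genes together with other transcription factors. Inhibitory SMADs, themselves induced by the signal, close a negative feedback loop. In fibroblasts this pathway is known for the control of extracellular matrix genes and of proliferation. H3K4me1 is a mark of enhancers and of the regions to either side of active promoters, and ASH2L is a subunit of the KMT2 complexes that place it.

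All 10 genes had an H3K4me1 site at the promoter, defined as the 1 kb to each side of the most upstream transcription start site (TSS), compared with 63.9% of all protein-coding genes. A CpG island, a stretch rich in the dinucleotide CG, was also present at all 10 promoters and at 53.8% of all protein-coding promoters. Of the genes with such an island, 93% had a promoter site, so the count of 10 is close to what island promoters had in general.

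The promoters showed 2 layouts. At Tgfb2, Tgfb3, Tgfbr3 and Smad7 a site ran across the TSS, and a covered TSS was found at 39.5% of all protein-coding genes and at 56.6% of those with an island. At the other 6 genes the TSS was free and a site ended on either side of it within 1 kb, a layout that 13.7% of all protein-coding genes and 23.7% of the island genes had. By role, the TSS was covered at 2 of 3 ligands, at 1 of 3 receptors, at 0 of 3 activating SMADs and at Smad7. With so few genes for each role, these counts describe the genes and were not tested. They also depend on the annotation, since at the RefSeq starts Tgfb2 and Smad7 were not covered and Smad2 was.

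The site-free gap over the TSS measured 287 bp at Tgfbr2, which encodes the type II receptor, 339 bp at Tgfb1 and 397 bp at Smad3. It was 415 bp at Tgfbr1, the type I receptor gene, 550 bp at Smad2 and 586 bp at Smad4, the gene of the SMAD that the receptor-activated SMADs share. The 6 gaps had a median of 406 bp, beside a median of 423 bp (quartiles 339 and 572 bp) over the 3009 protein-coding genes with this layout. The gaps of these genes were thus of the usual width. Their position differed. At Smad2 the upstream site ended at -9 bp from the TSS and the next began at 542 bp. From this start the gap lay almost wholly inside the gene. Other protein-coding starts of Smad2 lie at 121 and 466 bp, inside the gap, and at 594 bp, inside a site. RefSeq places its start at -490 bp, also inside a site. The position of the Smad2 gap thus depends on the start taken. At Smad3 the upstream site ended at -312 bp and the next began at 86 bp, and the gap lay mostly upstream.

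**Figure D1:**
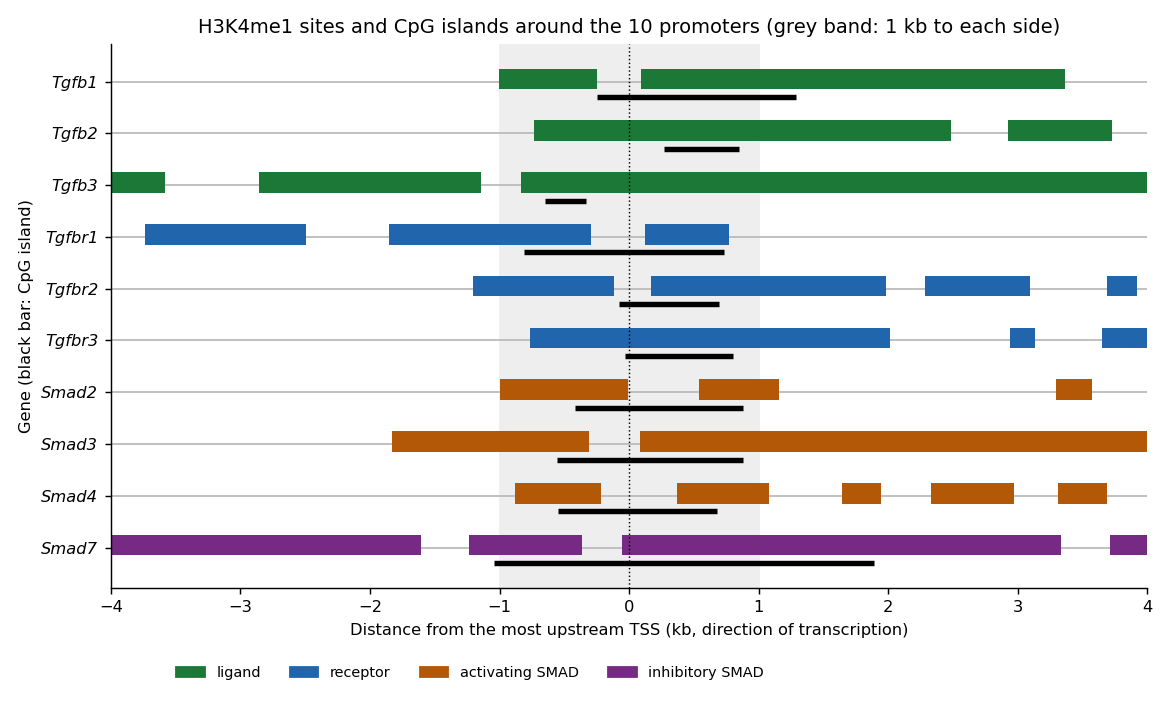
H3K4me1 sites (coloured by the role of the gene) and CpG islands (black bars) within 4 kb of the most upstream TSS of each gene, with distance in kb along the direction of transcription and the promoter window as a grey band. The TSS lies inside a site at Tgfb2, Tgfb3, Tgfbr3 and Smad7, and between 2 sites at the other 6 genes.

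The DNA just before the start is shown for the 4 genes with a free TSS for which the RefSeq promoter table (GRCm38.p6, the same assembly as mm10) held a sequence, because it is the stretch that the sites left out. The 250 bases before the RefSeq start are given 5′ to 3′ on the strand of the gene, with every CG in capitals. The positions are chr7:25686752-25687001 on the plus strand for Tgfb1, chr4:47352972-47353221 on the plus strand for Tgfbr1, chr9:116175364-116175613 on the minus strand for Tgfbr2 and chr9:63757995-63758244 on the minus strand for Smad3.
Tgfb1: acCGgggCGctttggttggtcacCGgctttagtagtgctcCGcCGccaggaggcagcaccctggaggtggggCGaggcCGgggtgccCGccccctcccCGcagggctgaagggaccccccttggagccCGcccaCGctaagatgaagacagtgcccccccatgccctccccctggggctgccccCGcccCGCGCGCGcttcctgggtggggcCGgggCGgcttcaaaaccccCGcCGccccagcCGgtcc
Tgfbr1: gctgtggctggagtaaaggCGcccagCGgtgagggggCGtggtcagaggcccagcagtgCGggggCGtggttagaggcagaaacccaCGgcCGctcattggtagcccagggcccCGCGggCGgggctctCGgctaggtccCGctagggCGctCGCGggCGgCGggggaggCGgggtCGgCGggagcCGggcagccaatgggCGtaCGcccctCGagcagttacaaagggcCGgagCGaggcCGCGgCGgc
Tgfbr2: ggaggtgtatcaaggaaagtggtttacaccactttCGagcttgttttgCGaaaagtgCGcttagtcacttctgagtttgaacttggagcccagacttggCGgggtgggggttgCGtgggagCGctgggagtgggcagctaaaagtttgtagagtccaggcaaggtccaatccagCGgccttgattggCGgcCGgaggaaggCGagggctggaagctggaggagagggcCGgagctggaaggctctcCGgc
Smad3: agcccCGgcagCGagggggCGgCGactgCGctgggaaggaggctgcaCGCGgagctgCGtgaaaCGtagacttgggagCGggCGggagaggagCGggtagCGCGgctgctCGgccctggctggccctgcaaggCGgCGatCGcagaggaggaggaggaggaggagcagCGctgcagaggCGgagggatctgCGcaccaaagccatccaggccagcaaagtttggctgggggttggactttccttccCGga

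The stretches of Tgfbr1 and Smad3 lay wholly in the gap between their sites, that of Tgfb1 did so but for its first base, and at Tgfbr2 the upstream site covered the part up to -117 bp. In RefSeq the Tgfbr1 stretch also overlaps an exon of a predicted antisense RNA. They held 29 CG at Tgfbr1, 22 at Smad3, 21 at Tgfb1 and 12 at Tgfbr2. The median over 20150 RefSeq promoters of 16522 genes was 10 (quartiles 3 and 19), so 3 of the 4 were richer in CG than 75% of promoters. GGGCGG, the core of the GC box bound by SP1 and related factors, was searched on both strands and found 5 times at Tgfb1, 2 times each at Tgfbr1 and Smad3 and 0 times at Tgfbr2. At least 1 such match was present in 44.1% of all 20150 promoters. A match of letters is a description and shows no binding.

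At Tgfb2 the site across the start reached from -735 to 2483 bp from the TSS. RefSeq places the most upstream start of this gene farther out, at -3708 bp, and no site lay within 1 kb of that position. Tgfb3, Tgfbr3, Smad2, Smad4 and Smad7 were not among the sequences of the table used here.

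The CpG islands of the covered promoters were themselves covered. Sites took up 100% of the island of Tgfb2 (577 bp), of Tgfb3 (319 bp) and of Tgfbr3 (841 bp), and 89.6% of the Smad7 island, which at 2928 bp was the longest of the 10. At the free promoters, coverage of the island ranged from 52.1% at Smad4 to 78.01% at Tgfb1.

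The ligand genes differed in how far the mark reached into the gene. Tgfb1 (chr7:25687002-25705077, plus strand, 18.1 kb), a ligand expressed in many cell types, had 1 site over its body, which ran from 90 to 3368 bp after the TSS from the first exon into intron 1. The remaining 14707 bp, 81.4% of the gene, held none. Tgfb3 (chr12:86056745-86079041, minus strand, 22.3 kb) had 2 sites, of which the wider, at 6254 bp, covered the TSS and was the widest of its locus. After it only 1 site of 295 bp followed, and the last 15458 bp of the gene were free.

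Tgfb2 (chr1:186622792-186705989, minus strand, 83.2 kb) had 26 sites over its body, the second highest count after Tgfbr3. Of these, 22 were centred in intron 1, which is 54.5 kb long and was 38.5% covered, and the 3 widest of them, of 3520, 3335 and 2287 bp, lay between 8822 and 34372 bp after the TSS. Its density of 0.313 sites per kb (95% Poisson interval 0.204 to 0.458) was the highest of the 10 genes. The share of the body covered was 28.8% for Tgfb2, 25.6% for Tgfb3 and 18.1% for Tgfb1. Coverage of Tgfb2 came from many sites of 200 to 3520 bp, and that of the others from 1 or 2.

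Among the receptors, Tgfbr1 stood at the low end. Tgfbr1 (chr4:47353222-47414931, plus strand, 61.7 kb) had 4 sites of 440 to 807 bp over its body, and 3.83% of the body was covered, the lowest share of the 10 genes. A stretch of 46552 bp, 75.4% of the gene, was without a site. Within its length class this was not unusual: 1610 of the 2515 protein-coding genes of 50 to 100 kb had a higher share. Upstream the picture was different: 14 sites lay in the 50 kb before the TSS, where 32.2% of bases were covered, and only 1 site lay in the 50 kb after the gene. Of the upstream sites, 4 overlapped the neighbouring collagen gene Col15a1. A protein-coding transcript of Tgfbr1 that starts 32994 bp into the gene had no site within 20252 bp.

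Tgfbr2 (chr9:116084293-116175360, minus strand, 91.1 kb) had 13 sites over its body, and 10 of them were centred in intron 1. These reached 39104 bp into the gene and covered 28.4% of the intron, while the later introns were 3.67% covered. The body as a whole was 15.9% covered, and 509 of the 2515 genes of its length class had more. The widest site of the locus, of 4571 bp, lay upstream, at -49265 to -44695 bp.

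Tgfbr3 (chr5:107106570-107289629, minus strand, 183 kb) encodes betaglycan, the co-receptor that presents ligand to the type II receptor. It had 36 sites, the most of the 10 genes, and they were spread over the whole length. Intron 1 held 8 of them, and 28 were centred in later introns. The body was 27.8% covered, and 133 of the 2492 genes of 100 kb or more had a higher share. Its widest site, of 5202 bp, lay in intron 3, 85568 to 90769 bp after the TSS. A run of 4 sites of 2472 to 3926 bp occupied introns 14 to 16 near the 3′ end. A short protein-coding transcript starts 156706 bp into the gene, 6038 bp from the first site of that run.

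Smad2 and Smad4 had no body site wider than 743 and 1613 bp, respectively. Smad2 (chr18:76241580-76310963, plus strand, 69.4 kb), one of the receptor-activated SMAD genes, had 12 sites of 213 to 743 bp, which covered 8.83% of its body. The widest site of the whole Smad2 locus measured 1218 bp, the narrowest such maximum of the 10 loci, and the flanks held 3 sites upstream and 2 downstream. Smad4 (chr18:73639009-73703780, minus strand, 64.8 kb) had 7 sites and 7.15% of its body covered. Of these, 6 were centred in intron 1 in the first 7563 bp, the next 48140 bp were free, and a last site of 288 bp lay in intron 10. No site touched any of the 12 exons of Smad4. A protein-coding transcript that starts 25549 bp into the gene lay 17986 bp from the nearest site. In coverage both genes were near the middle of their length class, with 967 and 1130 of 2515 genes higher and a class median of 6.15%. In density both were above the class median of 0.0807 sites per kb, and Smad2 also above the upper quartile of 0.145.

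Smad3 (chr9:63646767-63757994, minus strand, 111 kb), the other receptor-activated SMAD gene, was marked along its whole length. It had 21 sites and 63.9% of its body covered. Of the 2492 protein-coding genes of 100 kb or more, 1 had a higher share, and the class median was 5.54%. A share of at least 50% was found for 6.47% of all protein-coding genes, for 1.36% of those of 20 kb or more and for 0.562% of those of 100 kb or more, and among the 10 genes for Smad3 and Smad7. The Smad3 sites included 6 of at least 5 kb. The widest, of 12199 bp, lay in intron 1, 49206 to 61404 bp after the TSS, and 80 of all 160144 sites (0.05%) were at least as wide.

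The wide Smad3 sites were not limited to intron 1, although this intron makes up 80.5% of the gene. Intron 1 was 60.7% covered and the later introns 84.8%. A site of 6777 bp took in exons 2 to 5, one of 9854 bp exons 6 to 8, and all 9 exons were touched by a site. With the gene cut into 10 equal parts from the TSS to the 3′ end, coverage lay between 45.5% and 81.1% in 9 of them and was 4.28% in part 7, which holds most of the longest free stretch, of 8865 bp. Of the shorter protein-coding transcripts, that starting 91447 bp into the gene began inside a site, and those starting 6917 and 46025 bp in began 38 and 10 bp from one.

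Smad7 (chr18:75367529-75395935, plus strand, 28.4 kb), the inhibitory SMAD gene, was covered almost from end to end. It had 5 sites over its body, of 3391, 11401, 10610, 1533 and 1105 bp in the direction of transcription, and the last of them overlapped the gene by its final 1 bp. They were separated by 356 to 406 bp, so that no stretch over 406 bp was free. The share covered was 94.6%, the highest of the 5152 protein-coding genes of 20 to 50 kb, whose median was 6.73%. The 2 widest sites together spanned from 3709 to 26075 bp after the TSS, over exon 3 and most of intron 3. All 5 annotated starts of Smad7 lay inside a site. RefSeq places its start at -164 bp, between a site that ended at -361 bp and one that began at -56 bp. Whether the Smad7 start is covered thus depends on the start taken.

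**Figure D2:**
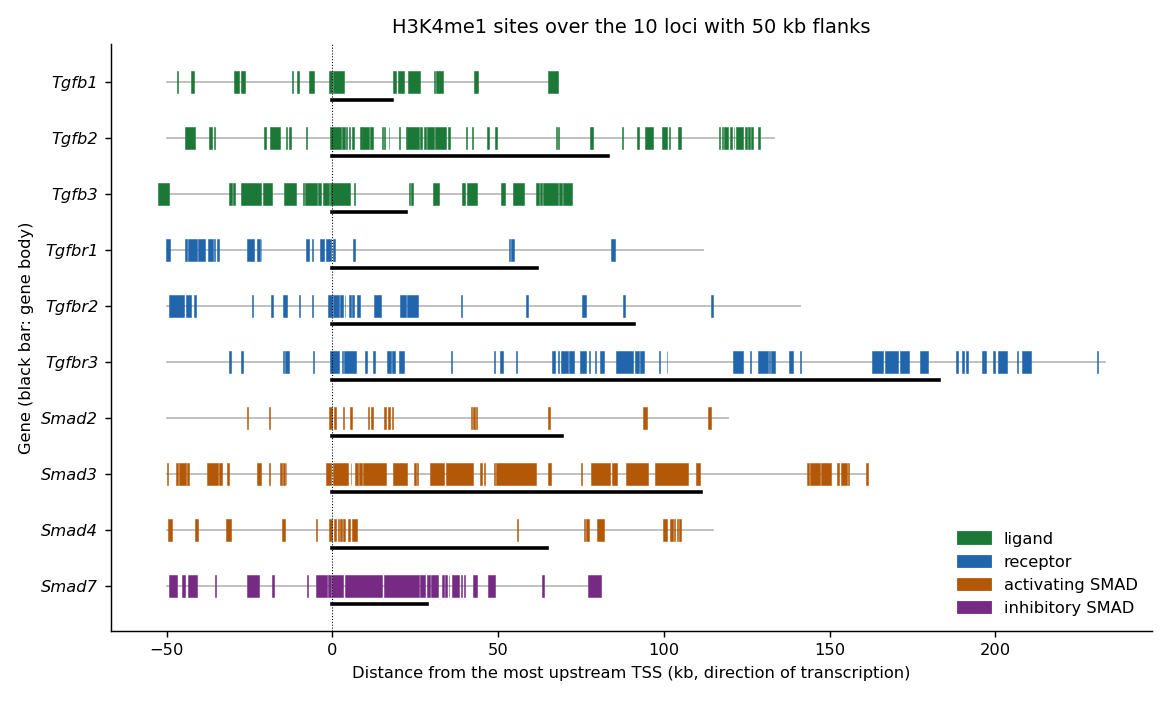
H3K4me1 sites (boxes, to scale and coloured by role) over each gene (black bar) and 50 kb to either side, with distance from the most upstream TSS in kb along the direction of transcription. The Smad7 bar is nearly filled, the Smad3 bar carries broad boxes over its whole length, and Tgfbr1 and Smad4 show free stretches of 46552 and 48140 bp.

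Counting sites and measuring coverage ordered the genes differently. Smad7 had 0.176 sites per kb (0.0572 to 0.411), about the same as Smad2 with 0.173 (0.0894 to 0.302), although 94.6% of the first and 8.83% of the second was covered. The density fell from Tgfb2 through Tgfbr3 (0.197, 0.138 to 0.272), Smad3 (0.189, 0.117 to 0.289), Smad7, Smad2, Tgfbr2 (0.143, 0.0760 to 0.244), Smad4 (0.108, 0.0435 to 0.223), Tgfb3 (0.0897, 0.0109 to 0.324) and Tgfbr1 (0.0648, 0.0177 to 0.166) to Tgfb1 (0.0553, 0.00140 to 0.308). The intervals of all neighbours in this order overlapped. The interval of Tgfb2 lay wholly above that of Tgfbr1 and overlapped those of the other 8 genes. The intervals cover only the counting of sites, and since sites next to each other are not independent, the true uncertainty is larger.

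**Figure D3:**
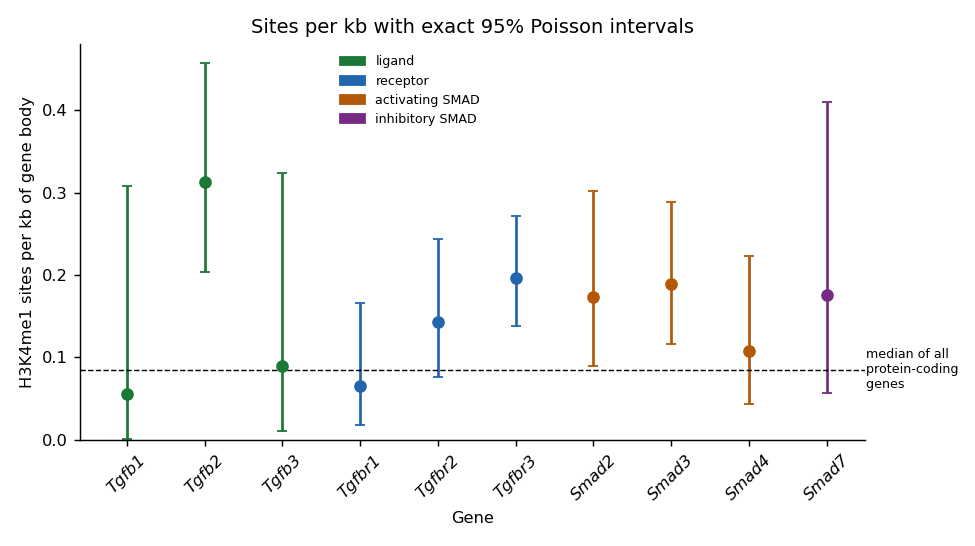
H3K4me1 sites per kb of gene body for each gene, coloured by role, with exact 95% Poisson intervals as bars and the median of all protein-coding genes as a dashed line. Tgfb2 is highest at 0.313, and the intervals of most genes overlap.

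Compared by role, the median density was 0.0897 sites per kb for the ligands, 0.143 for the receptors and 0.173 for the activating SMADs, beside 0.176 for Smad7. Over the 10 genes it was 0.158, over all protein-coding genes 0.0851, and over the 10972 with both an island and a site at the promoter, as all 10 genes have, 0.133. The median share of the body covered gave another order: 25.6% for the ligands, 15.9% for the receptors, 8.83% for the activating SMADs and 94.6% for Smad7. Over the 10 genes it was 21.9%, over all protein-coding genes 6.47%, and over the 10972 genes with an island and a site at the promoter 13.1%. All 10 genes had a body site, beside 72.8% of all protein-coding genes, and 5 of 10 had at least 25% of the body covered, beside 17.5%. Both measures were also higher in the 10972 genes with an island and a site at the promoter. Their lower quartile of body sites was 1 and their upper quartile of coverage 26.5%, beside 0 and 18.0% over all protein-coding genes. The activating SMADs spanned the widest range, from 7.15% at Smad4 to 63.9% at Smad3. Pooled over their bases, they reached 33.4%, more than the 26.7% of the ligands and the 20.2% of the receptors. The pooled share takes in the 63.9% of Smad3, the longest of the 3, which does not set their median. The spread within the activating SMADs was thus larger than the differences between the medians of ligands, receptors and activating SMADs.

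**Figure D4:**
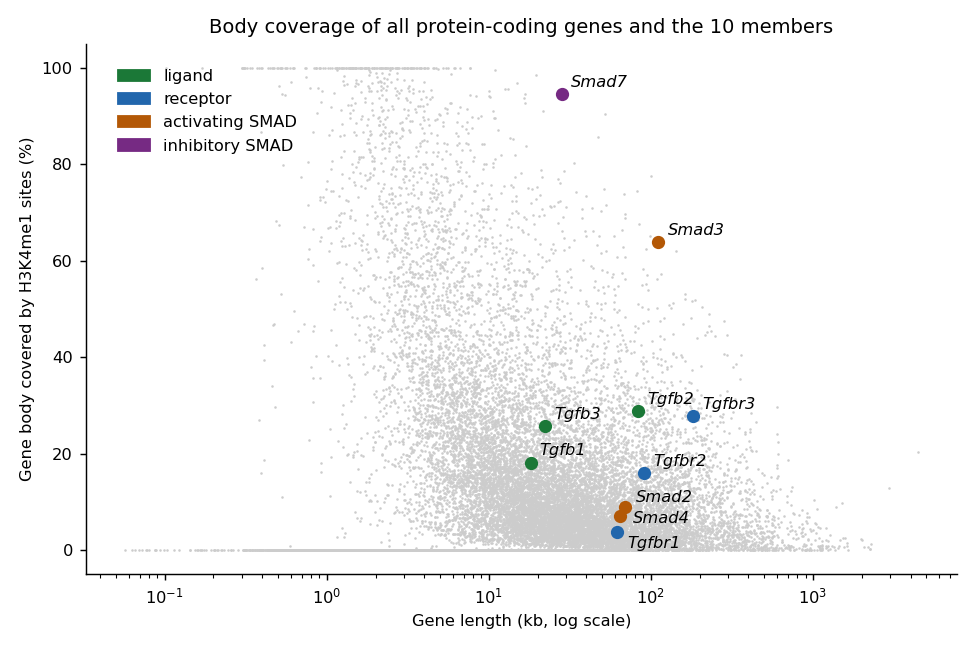
Share of the gene body covered by H3K4me1 sites, in %, against gene length in kb on a log scale, for all protein-coding genes (grey) and the 10 genes (coloured by role). Smad7 at 94.6% and Smad3 at 63.9% lie above nearly all genes of similar length, and Tgfbr1 lies lowest of the 10 at 3.83%.

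The width of the sites followed the same 2 genes. Among all 160144 sites the median width was 603 bp (quartiles 348 and 1134 bp) and 0.937% were at least 5 kb wide. The 127 sites over the 10 gene bodies had a median of 699 bp, and 10 of them (7.87%) were at least 5 kb wide: 6 at Smad3, 2 at Smad7 and 1 each at Tgfb3 and Tgfbr3. A body site of this width was thus present in 4 of 10 genes, beside 5.13% of all protein-coding genes. Sites of at least 10 kb lay over the bodies of Smad3 and Smad7, and 0.729% of all protein-coding genes had one. These shares were not matched for gene length or promoter type. The upper quartile of the widest body site was 2328 bp over all protein-coding genes and 3381 bp over those of 100 kb or more. It was 3002 bp over the 10972 genes with an island and a site at the promoter. The median of the widest site in the locus was 4089 bp for the 10 genes, 2303.5 bp for all protein-coding genes and 2969.5 bp for those with an island and a site at the promoter.

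Along the gene, sites were weighted towards the start in most members. In the 9042 protein-coding genes of 20 kb or more with a body site, a median of 73.7% of covered bases lay in the 5′ 50% of the gene. The value was 100% at Tgfb1 and Tgfb3, 93.8% at Smad4, 87.8% at Tgfb2, 86.7% at Tgfbr2 and 69.1% at Smad2. It was close to even at Smad3 (54.6%), Smad7 (51.4%), Tgfbr3 (51.4%) and Tgfbr1 (47.3%). At Tgfbr1 this balance rests on few sites, with coverage in 3 of 10 equal parts of the gene, and it does not mean that the gene was evenly covered.

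**Figure D5:**
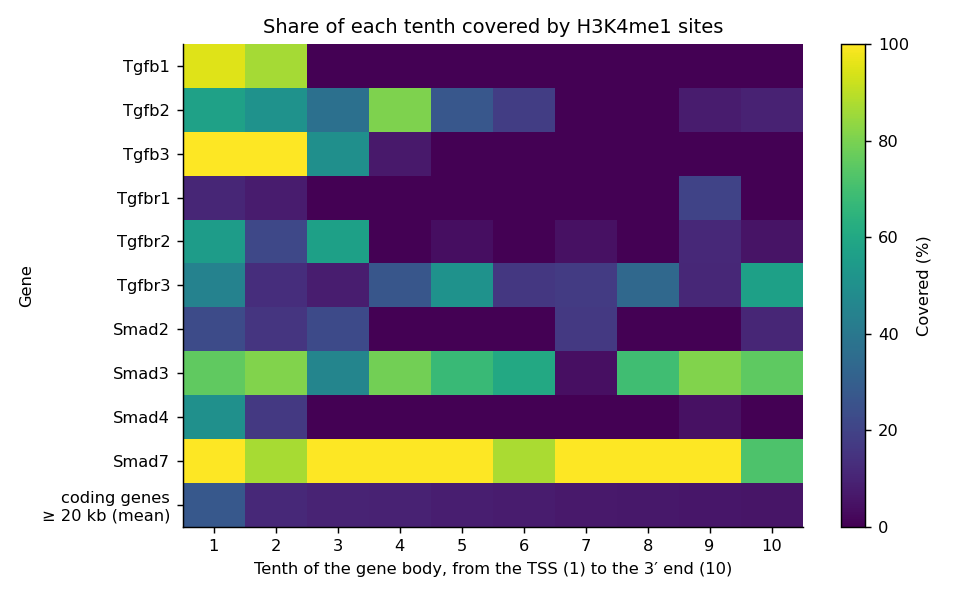
Share of bases covered by H3K4me1 sites in each of 10 equal parts of the gene body, from the TSS (1) to the 3′ end (10), with the mean of protein-coding genes of 20 kb or more in the last row. Coverage is concentrated in the first parts of Tgfb1, Tgfb3 and Smad4, and runs through to part 10 in Smad3, Smad7 and Tgfbr3.

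Most of the 288 sites lay away from promoters: 259 (89.9%) were not within 1 kb of the TSS of any protein-coding gene, and 24 (8.33%) overlapped a CpG island. Over all 160108 sites on chromosomes these shares were 89.6% and 8.43%, so the loci were like the rest of the genome in this. Over the bodies, 77 of 127 sites (60.6%) were centred in intron 1, 42 in later introns and 6 in exons. Over the bodies of all protein-coding genes, 35.7% of sites were centred in intron 1. Of the 77, Tgfb2 contributed 22 and Smad3 18, and both genes have most of their length in intron 1. The flanks differed between genes and held 161 sites that touched no body of the 10. The 50 kb upstream of Tgfb3 were 45.2% covered and those downstream 41.3%, the highest values of the 20 flanks, but 9 of 11 upstream sites overlapped Ift43 and all 12 downstream sites overlapped Ttll5, so these cannot be assigned to Tgfb3 by position. Around Smad7, 29.9% and 26.2% of the flanks were covered, and of the 12 downstream sites 2 overlapped another gene, Ctif. Smad2 had the barest surroundings upstream, with 4.01% covered, and Tgfbr2 downstream, with 0.986%.

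Short DNA words were searched in the central 200 bp of each site on both strands. TGANTCA, the word bound by AP-1 factors, which act with SMADs at many target genes, was present in 37 of the 288 sites (12.8%) and in 12.7% of all sites on the chromosomes. CAGACA, which contains the short SMAD-binding element, was present in 21.5% of the 288 and 20.03% of all. The palindrome GTCTAGAC was present in 1 of the 288 sites (0.347%) and in 0.208% of all. The sites of these loci thus held these words about as often as sites elsewhere. Among the genes, Tgfbr1 had TGANTCA at the centre of 8 of its 19 locus sites and Smad7 at 0 of 25. These 2 genes are named because their counts were the extremes.

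An example of the word elsewhere in a site is given for the widest Smad3 site, in intron 1 at chr9:63705870-63705930 on the minus strand, and for the widest Tgfbr1 body site, in intron 8 at chr4:47407334-47407394 on the plus strand, each as 61 bases with TGANTCA in capitals.
Smad3: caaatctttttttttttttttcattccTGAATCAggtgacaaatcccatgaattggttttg
Tgfbr1: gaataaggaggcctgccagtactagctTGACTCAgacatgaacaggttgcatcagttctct
The Smad3 site of 12199 bp held 2 such words and the Tgfbr1 site of 807 bp held 1. Neither word shown lies in the central 200 bp of its site, so neither is among the matches counted there.

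A list of 50 further genes of the pathway was examined in the same way. A promoter site was present at 43 of the 50, beside 63.9% of all protein-coding genes and 93% of those with an island. An island was present at 39 of the 50, and of the genes without a promoter site only Bmp7 had one. The counts by group below are to be read beside these shares and were not tested. A median of 20.9% of the body was covered, beside 6.47% over all protein-coding genes and 13.1% over those with an island and promoter site. Of 10 genes of latency and activation, all had a promoter site. The densest was Thbs1, whose product thrombospondin releases latent TGF-beta, with 0.655 sites per kb and 58.1% of the body covered, and the sparsest was the integrin gene Itgb8, with 0.0371 per kb and 4.14%.

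The 11 other receptors of the superfamily included 9 with a promoter site and 8 with an island. Of the 11, 0 had 50% of the body covered, a share that 6.47% of all protein-coding genes reached. Acvrl1, a type I receptor gene, had 0.357 sites per kb and Bmpr2, the type II receptor gene for BMPs, 0.0865, while Amhr2 and Eng, which encodes the co-receptor endoglin, had no promoter site. All 4 other SMAD genes had one. Smad6, the other inhibitory SMAD gene, had 0.188 sites per kb, a widest body site of 7251 bp and 56.3% of its body covered, and Smad9 had 0.0219 per kb and 3.53%. Both inhibitory SMAD genes thus had over 50% of the body covered, and of the 6 receptor-activated and common SMAD genes Smad3 did.

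All 9 regulators of the signal had a promoter site. Skil, which encodes a SMAD co-repressor, had 0.363 sites per kb and Zfyve9, the gene of the SMAD-anchoring protein SARA, 0.0209. Of 11 other ligand genes, 6 had a promoter site and 5 an island. Inhba, the gene of the activin A subunit, had 0.455 sites per kb and 45.7% of its body covered. Bmp4, Bmp7, Lefty1, Lefty2 and Amh had no promoter site. Of these, Bmp4 still had 2 body sites and 47.5% of its body covered, whereas the other 4 had 0 body sites. The 5 target genes all had one. Id1 had 0.862 sites per kb and lay wholly inside a site, and Tgfbi had 0.166 per kb and 27.6% covered. Id1 is short, and a single site can fill a short gene.

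The layout within 3 kb of the TSS was compared between each of the 10 genes and the other 59, using the Jaccard index, the bases covered in both divided by the bases covered in either. Only the best match of each gene is given, and the median over its 59 comparisons ranged from 0.278 at Tgfbr1 to 0.551 at Tgfbr2. Smad3 was most like Acvr1 (0.926), Tgfb3 most like Tgfbi (0.924), Tgfbr3 most like Acvr2b (0.904) and Tgfb1 most like Acvr1b (0.883). Within the 10 genes the closest pair was Tgfb2 and Tgfbr3 (0.847), both with a covered TSS. Tgfbr2 was most like Smad5 (0.824) and Smad4 most like Tgfbr2 (0.642). Smad2 and Tgfbr1, next to Smad4, had the lowest best matches, with 0.659 to Itgb8 and 0.554 to Smad9.

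As a check of the cell type, all 10 marker genes of fibroblasts and mesenchyme had a promoter site, with a median of 45.7% of the body covered. Of 19 marker genes of blood, epithelium, endothelium, liver, neurons and embryonic stem cells, 7 had one, with a median of 3.54%. These were 3 of 4 epithelial, 2 of 3 endothelial and 2 of 3 neuronal markers, and 0 of the 5 blood, 2 liver and 2 stem cell markers. The depth of the libraries is not known from the positions.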

How the data were processed

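H3K4me1 ChIP-seq was performed in NG3 cells. According to the study's methods and the processing notes of the submitters, the authors used Trim Galore for trimming, BWA for alignment to mm10, SAMtools for filtering, Picard to merge the replicates, and MACS2 to call broad peaks. The versions and thresholds are not given in the sources used here. The deposited table holds the start and end of each peak and no value per library, hence no depth, no replicate error and no test between conditions. The table counts starts from 0, the text from 1. Of 160144 sites, 160108 lay on chromosomes.

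Overlaps (at least 1 bp) were computed with numpy 2.4.6, numba 0.67.0 and scipy 1.17.1 under Python 3.11.15, and plots were made with matplotlib 3.10.9. Genes followed GENCODE M21 (GRCm38.p6), not M25 as in the paper. A gene body ran from the first to the last base of the gene, and a site touching it was counted. CpG islands were called on repeat-masked sequence (score 17 per CG, -1 per other base, over 200 bp, at least 50% GC, observed to expected CG over 0.6), which gave 16099. Overlap and island functions were tested on simulated data.

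The 10 genes and the lists were chosen with earlier results of these data known. Named were the 10 genes, the widest sites of each locus, in each group of the wider list the genes with the most and fewest body sites per kb and those without a promoter site, and the gene with the most similar layout, which for Smad7 is not reported here. Genes of 5 kb sites or motif counts outside that rule were named after their values were seen. Alternatives concerned the TSS, promoter window, overlap, site width, merging of sites, flanks and gene bounds.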

Additional observations from a re-analysis of the deposited data

How the results depend on the processing

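No paired analysis was possible because the sites form 1 set over all libraries, with no value per library, and for the same reason no replicate could be left out. The 7 values over the 10 genes were recomputed under 11 other settings, of which the RefSeq gene bounds were chosen after seeing the data. Of 38 such values, 30 stayed within the limit of 1.5 times and 8 moved. Merging sites within 1 kb raised the genes with a covered TSS from 4 to 10 and the median widest site of a locus from 4089 to 10729 bp, and lowered the body sites from 127 to 73, the locus sites from 288 to 165 and the median density from 0.158 to 0.0888 sites per kb. These shifts follow from joining neighbouring sites across gaps under 1 kb. Without sites under 500 bp there were 82 body sites and 0.0944 sites per kb, because fewer sites were counted. Counting any annotated TSS gave 8 genes with a covered TSS. A promoter site was found for 8 of 10 genes when its centre had to lie in the window, and for 9 with RefSeq bounds, where Tgfb2 had none. With RefSeq bounds, 3 genes had a covered TSS (Smad2, Tgfb3 and Tgfbr3). Under the 4 settings that can change body coverage (sites of at least 500 bp, merged sites, bodies without the first 1 kb, RefSeq bounds) Smad7 and Smad3 had the highest body coverage, and Smad2, Smad4 and Tgfbr1 the lowest. With merged sites Smad7 was 100% covered, and Smad3, at 66.8%, ranked 4 in its length class instead of 2. The depth is unknown, so a free stretch shows only that no site was called there.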
